A study of Homo sapiens with 18 samples.

Results

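LNCaP is an established human prostate cancer line that responds to androgen. RNA from LNCaP cells rescued with a phosphosite mutant of HOXB13 was compared with RNA from cells given empty vector, in the absence of added androgen. Every library of the study came from cells with a short hairpin RNA against HOXB13, controls included. On that background an inducible construct supplied nothing (empty vector, abbreviated EV), the wild-type protein (WT) or a mutant with alanine in place of T8, S31 and T41 (3A). The comparison takes 3 libraries labelled 3A with vehicle and 3 labelled EV with vehicle, 6 of the 18 libraries, and tests all genes. These cells were starved of steroids for 48 h by growth in 2% charcoal-stripped serum and spent a further 24 h with ethanol at 0.1% as vehicle. The matching 3A and EV libraries with 10 nM R1881, a synthetic androgen, and the WT vehicle libraries are used below only to set values beside this contrast. The labels name no promoter, inducer dose or clone for the rescue, and they do not say that replicates were separate cultures. The p-values therefore reflect differences among libraries of a group, whatever their source, technical ones included.

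HOXB13 is a homeobox transcription factor of the prostate lineage. The study's title concerns its phosphorylation by mTOR, the kinase that couples growth to amino acid and energy supply. Several gene programmes recur below. E2F factors drive genes of DNA replication at the G1/S transition. The DREAM and MuvB complexes control genes of mitosis through a promoter element called the CHR (cell cycle genes homology region). ATF4 is the transcription factor of the integrated stress response and turns on genes of amino acid synthesis and uptake, also downstream of mTOR, in part by binding composite sites together with C/EBP proteins.

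The 6 libraries held between 23375138 and 30611980 counts, and 17162 of 58735 genes in the table passed the count filter. The first principal component of these libraries carried 38.3% of the variance and separated 3A from EV. Levels are CPM, counts relative to library size, scaled between libraries by TMM. Changes are log2 fold changes of 3A over EV ± standard error, and a gene is called when edgeR's quasi-likelihood test gives a Benjamini-Hochberg adjusted p under 0.05 over all genes tested. Mitochondrial ribosomal RNA took 1.42% to 1.53% of counts in EV and 1.0% to 1.21% in 3A, without overlap. The WT libraries ran from 1.0% to 1.77%. The part of this difference in the results was not tested. The LNCaP identity of the libraries was read from prostate markers: KLK3 stood at 1024 ± 252 CPM in EV and 922 ± 219 in 3A (SD, n = 3), and FOLH1 at 1172 ± 83.2 and 958 ± 37.2. Of 18 markers of other cell types, 6 passed the count filter, which ran over the 18 libraries of the study. In the 6 libraries compared here, 2 of those tested were near 0. KRT14 of basal epithelium had 0 to 2 counts per library and ALB of hepatocytes 4 to 18. CD3E of T cells, PECAM1 of endothelium, DCN of fibroblasts and KRT5 and TP63 of basal epithelium had 0 counts in all 6 libraries. Genes of fibroblasts and smooth muscle were detected in every library: COL1A1 had 429 to 631 counts per library, COL3A1 21 to 49 and ACTA2 29 to 79. The tested markers summed to between 25.9 and 27.9 CPM in EV and between 34.6 and 39.2 CPM in 3A. The 1 called marker was VWF, an endothelial clotting factor, at 1.29 ± 0.18 (edgeR adjusted p = 4.31e-05).

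The HOXB13 gene lies on the minus strand of chromosome 17 (48724763 to 48729178, hg38). Its RNA was 538, 497 and 564 CPM in the 3 EV libraries and 668, 870 and 739 CPM in the 3 3A libraries. Every 3A library lay above every EV library. The change was 0.51 ± 0.11 (95% interval 0.28 to 0.74, edgeR adjusted p = 0.00482), and it was called without any 1 library. The call was closest to the threshold without 3A library 2, at 0.40 (edgeR adjusted p = 0.0493). Without EV library 2 the change was 0.46 (edgeR adjusted p = 0.0298). HOXB13 was not called against a minimum fold of 1.2 (edgeR adjusted p = 0.101). The WT vehicle libraries stood at 536 ± 50.2 CPM (SD, n = 3), a mean within the range of the EV libraries. Counts per gene do not separate the transcript targeted by the hairpin from the rescue transcript, so the level of the 3A transcript alone is not known.

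**Figure D1:**
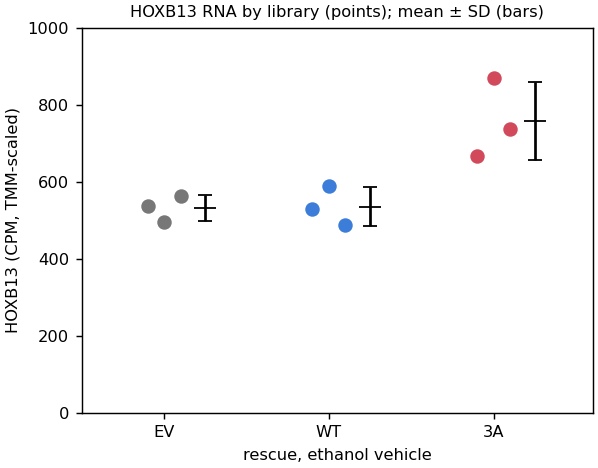
HOXB13 level in CPM (vertical axis, from 0) in the vehicle libraries of the EV, WT and 3A rescues. Points are single libraries and bars are mean ± SD (n = 3); the 3A libraries sit between 668 and 870 CPM, all above the EV libraries.

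In vehicle, 682 genes were higher and 562 were lower in 3A than in EV, 1244 in all. That is 7.25% of the genes tested, 3.97% called higher and 3.27% called lower, which is the background for the counts of calls below. The gene lists were chosen with earlier results of these data known. Their counts of calls therefore describe the members and are no independent test of a programme. Changes over 2-fold were more frequent upward, with 279 genes higher and 108 lower. The median change over all genes tested was 0.00. Of the called genes, 676 of the higher and 556 of the lower had no overlap between the 3A and EV libraries. The share of all genes tested without such overlap was not counted. Counts of non-overlapping members in the lists below therefore have no background, and an excess cannot be read from them. Without EV library 3 the total fell to 751 and without 3A library 2 to 805. Genes called higher numbered 442 without EV library 3. Genes called lower numbered 325 without EV library 1, 309 without EV library 3, 345 without 3A library 2 and 320 without 3A library 3.

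Genes of the mitotic cell cycle were higher in 3A than in EV. All 22 members of a mitotic list were called higher, with changes from 0.97 to 1.63 and a median of 1.34, and none of the 22 had overlapping groups. Of these calls 21 held without any 1 library. The exception, NUSAP1, which bundles spindle microtubules, was lost without EV library 1 or 2 or 3A library 2 or 3, at 0.73 to 1.24. A larger share of dividing cells and more of these RNAs per dividing cell cannot be told apart in bulk RNA.

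Among proliferation markers, MKI67, which encodes the Ki-67 antigen of cycling nuclei, stood at 23.7, 21.5 and 24.7 CPM in EV and at 60.4, 80.1 and 75.7 CPM in 3A. The groups did not overlap, and the change was 1.63 ± 0.16 (edgeR adjusted p = 1.16e-06). TOP2A, the topoisomerase that untangles replicated chromosomes, went from 40.4, 29 and 39.7 CPM to 115, 108 and 88.7 CPM, a change of 1.51 ± 0.14 (edgeR adjusted p = 1.07e-06). Among kinases, PLK1, which drives mitotic entry and spindle assembly, read 22.4, 14.4 and 21.1 CPM in EV and 48.1, 60.3 and 43.5 CPM in 3A. Its change was 1.39 ± 0.21 (edgeR adjusted p = 0.000146). CDK1, the mitotic cyclin-dependent kinase, changed by 1.04 ± 0.16, and its partners cyclin A (CCNA2) by 1.55 ± 0.16 and cyclin B (CCNB1) by 1.04 ± 0.22. AURKB of the chromosomal passenger complex had the smallest change of the list, 0.97 ± 0.18. Motor and kinetochore genes rose as well. KIF11, the motor that separates spindle poles, went from 12.3, 10.6 and 13.2 CPM to 31.0, 31.1 and 27.5 CPM, and the kinetochore gene CENPF changed by 1.46 ± 0.14. BUB1B, a spindle checkpoint kinase, changed by 1.63 ± 0.19.

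Genes of the G1/S transition and DNA replication were higher too, 24 of 24, with a median change of 1.15 and a range of 0.45 to 1.67. All 24 had non-overlapping groups, and 23 calls held without any 1 library. The exception was POLA1, the catalytic subunit of the primase-coupled polymerase, lost without EV library 2 or 3 or 3A library 1 or 2, at 0.57 to 0.72. The transcription factor E2F2 had the largest change of the list. It went from 3.24, 3.48 and 3.94 CPM to 11.4, 12.5 and 10.1 CPM (1.67 ± 0.21), and E2F1 changed by 1.41 ± 0.15. Of the origin licensing genes, ORC1 of the origin recognition complex changed by 1.62 ± 0.17 and CDC6, which loads the helicase, by 1.41 ± 0.15. The helicase subunit MCM4 read 65.9, 52.2 and 58.4 CPM in EV and 160, 159 and 126 CPM in 3A, a change of 1.34 ± 0.14 (edgeR adjusted p = 1.86e-06). Its partner MCM3 changed by 0.99 ± 0.10 from a similar base. UHRF1, which carries DNA methylation through replication, changed by 1.39 ± 0.13, and 16.7% of its 100-base exon windows occur in another gene. CCNE1, the G1/S cyclin E, had the smallest change of the list at 0.45 ± 0.10 (edgeR adjusted p = 0.00877).

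Promoters of these genes carry known cell cycle elements, and the windows below show where. Promoter sequences, 250 bases before to 50 bases after each start site, came from RefSeq (GRCh38.p14) and were matched for 10687 of the protein-coding genes tested, 17 mitotic and 20 G1/S genes among them. The motifs were chosen after the values had been seen and were searched on both strands; no motif contains another. The CHR letters TTTGAA occurred in 64.7% of the mitotic promoters (11 of 17), against 9.67% of all promoters, 27.1% of those of genes called higher and 7.49% of those called lower. The E2F letters TTTGGCGC or TTTCCCGC occurred in 65.0% of the G1/S promoters (13 of 20), against 3.71% of all, 11.1% of those called higher and 2.67% of those called lower. A match is a description of the letters and not a measured binding site. The lists were made of genes of these programmes, so a high share of the matching letters in a list is no evidence about 3A. In 80-base windows upstream of the start, written 5′ to 3′ along the gene with the matched letters in capitals, MKI67 (chr10:128126424-128126503, minus strand) and PLK1 (chr16:23678809-23678888, plus strand) show CHR letters. E2F1 (chr20:33686386-33686465, minus strand) and MCM6 (chr2:135876521-135876600, minus strand) show E2F letters.
MKI67: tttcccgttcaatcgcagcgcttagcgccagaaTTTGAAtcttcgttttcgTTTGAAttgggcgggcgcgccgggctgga
PLK1: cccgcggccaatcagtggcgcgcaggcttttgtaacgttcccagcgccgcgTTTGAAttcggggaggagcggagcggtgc
E2F1: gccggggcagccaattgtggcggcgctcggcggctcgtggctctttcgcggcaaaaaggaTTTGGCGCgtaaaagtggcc
MCM6: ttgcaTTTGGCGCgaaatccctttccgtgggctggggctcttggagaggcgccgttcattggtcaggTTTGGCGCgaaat
MKI67 and MCM6 each show 2 matches in the window. MCM6, a further helicase subunit, changed by 0.73.

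Genes of the ATF4 and amino acid response were lower in 3A. Of 25 members, 20 were called lower and 0 higher, with a list median of -0.78, and 22 of the 25 had every 3A library below every EV library. The count was 17 without EV library 1, and 17 to 21 over all omissions of 1 library. The members not called were PSPH (-0.41), SLC7A1 (-0.32), VLDLR (-0.17), NUPR1 (-0.63) and ALDH1L2 (0.23, at under 1 CPM in both groups).

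ATF4 itself read 905, 746 and 931 CPM in EV and 452, 481 and 423 CPM in 3A. Every 3A library was below every EV library, and the change was -0.93 ± 0.13 (edgeR adjusted p = 3.93e-05). Among its targets in stress signalling, TRIB3, a pseudokinase that feeds back on ATF4, went from 504, 437 and 515 CPM to 179, 181 and 164 CPM, a change of -1.47 ± 0.11 (edgeR adjusted p = 2.67e-07). CHAC1, which degrades glutathione, went from 69.4, 50.5 and 79.0 CPM to 26.1, 24.6 and 23.8 CPM (-1.42 ± 0.21, edgeR adjusted p = 0.000104). In both genes every 3A library was below every EV library. The partner factor CEBPB read 176, 153 and 190 CPM in EV and 70.1, 68.7 and 60 CPM in 3A (-1.38 ± 0.12). DDIT3, which encodes the stress factor CHOP, changed by -1.55 ± 0.15, with 39.6% of its exon bases overlapped by other genes, so that its counts are uncertain where strand was not used. SESN2, a leucine sensor that restrains mTOR complex 1, changed by -0.99 ± 0.11, and DDIT4, which also restrains it, by -0.99 ± 0.13, with 41.2% of exon bases of DDIT4 overlapped by an antisense gene.

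Amino acid synthesis genes were lower as well. PSAT1 and PHGDH of serine synthesis changed by -0.92 ± 0.12 and -0.58 ± 0.11. ASNS, asparagine synthetase, went from 26.9, 25.6 and 20.5 CPM to 12.6, 14.6 and 12 CPM (-0.90 ± 0.17, edgeR adjusted p = 0.00182). CTH, which makes cysteine from cystathionine, changed by -1.07 ± 0.12, and the mitochondrial folate enzyme MTHFD2 by -0.78 ± 0.12. SHMT2 of the same pathway and AARS, alanyl-tRNA synthetase, were called at -0.33 and -0.34. The SHMT2 call was lost without EV library 1 or 3 or any 1 of the 3A libraries (-0.36 to -0.30), and the AARS call without EV library 1 (-0.30).

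Uptake was counted on a separate list of amino acid transporters, which shares SLC7A11, SLC3A2, SLC7A5 and SLC7A1 with the ATF4 list. Of 21 tested, 7 were called lower (33.3%, against 3.27% of all genes) and 0 higher, with a median of -0.32. The cystine carrier SLC7A11 read 364, 328 and 303 CPM in EV and 180, 149 and 151 CPM in 3A (-1.05 ± 0.11, edgeR adjusted p = 2.26e-06). Its heavy chain SLC3A2, shared with the leucine carrier, changed by -0.77 ± 0.12. SLC1A5, the glutamine carrier, went from 325, 272 and 322 CPM to 177, 188 and 165 CPM (-0.80 ± 0.09). SLC1A4 and SLC43A1 were each at -0.61. The calls of SLC7A5 (-0.48) and SLC43A2 (-0.33), both leucine carriers, were lost without EV library 1 or 3 or 3A library 1 or 3, at -0.51 to -0.34 and -0.37 to -0.31. That of SLC43A2 was also lost without 3A library 2.

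The composite letters of ATF4 and C/EBP, TGATGNAA, occurred in 30.0% of the ATF4 list's promoters (6 of 20), against 1.70% of all promoters. They occurred in 6.42% of those called lower and 2.71% of those called higher. The ATF4 list was made of genes of this response, so its share is likewise no evidence about 3A. The windows of CHAC1 (chr15:40953226-40953305, plus strand) and ASNS (chr7:97872433-97872512, minus strand) show the letters, in CHAC1 on the opposite strand.
CHAC1: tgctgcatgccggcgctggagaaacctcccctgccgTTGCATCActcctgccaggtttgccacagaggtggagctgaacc
ASNS: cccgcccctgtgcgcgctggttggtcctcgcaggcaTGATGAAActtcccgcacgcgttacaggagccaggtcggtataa
Letters of HOXB13's own preferred sites were rare in the same promoter windows. CCAATAAA occurred in 0.702% of all promoters, 0.418% of those called higher and 0.267% of those called lower. CTCGTAAA occurred in 0.0655% of all promoters, 2 of 479 of those called higher and 0 of 374 of those called lower. Only exact letters near the start site were searched, and sequence elsewhere was not. Whether HOXB13 acts on these genes directly was not tested.

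The plot of list medians by library sets these 3 lists beside the other rescue states. Relative to the EV vehicle mean, the mitotic median was 1.36, 1.48 and 1.10 in the 3A vehicle libraries and -0.33 to 0.19 in the EV vehicle libraries, and 0.29 to 0.52 in WT. The G1/S median was 1.22, 1.33 and 0.83 in 3A and -0.19 to 0.18 in EV, with 0.21 to 0.41 in WT. The ATF4 median was -0.79, -0.83 and -0.96 in 3A and -0.13 to 0.08 in EV, and WT lay within that range at -0.05 to -0.01. For all 3 lists no 3A library reached the range of the EV or WT libraries.

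**Figure D2:**
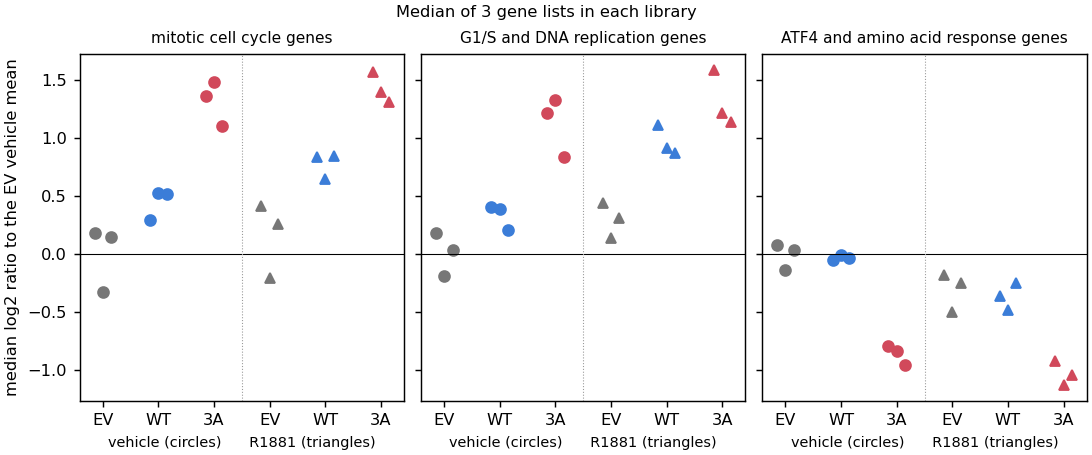
Median log2 ratio of the members of 3 gene lists to their EV vehicle mean (vertical axis, pseudocount 0.5 CPM), with 1 point per library for EV, WT and 3A in vehicle (circles) and with R1881 (triangles). In vehicle and with R1881 the 3A points lie above the EV and WT points in both cell cycle lists and below them in the ATF4 list.

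Beyond these lists, the largest falls among protein-coding genes with a mean of at least 1 CPM were in genes of varied function. CD55 (chromosome 1, 207321376 to 207386804), a surface inhibitor of complement, was the most abundant of the 12 and went from 37.0, 30.8 and 24.6 CPM to 7.77, 6.66 and 5.78 CPM. Its change was -2.19 ± 0.17 (edgeR adjusted p = 2.90e-07). PRSS1, a trypsinogen, went from 31.6, 27.8 and 27.7 CPM to 4.37, 9.96 and 7.56 CPM (-2.0 ± 0.30, edgeR adjusted p = 0.000107). KLHDC7B fell furthest, from 2.87, 2.52 and 3.24 CPM to 0.660, 0.112 and 0.238 CPM (-3.03 ± 0.54, edgeR adjusted p = 0.000857). LCN2, the siderophore-binding lipocalin of the acute phase response, changed by -2.38 ± 0.33. DMGDH, a choline catabolism enzyme of mitochondria, changed by -1.94 ± 0.28, PDE2A, a cyclic nucleotide phosphodiesterase, by -1.81 ± 0.27, and MOV10L1, a helicase of the piRNA pathway, by -2.05 ± 0.35. GPR1 (-2.75) and C1orf158 (-2.72) were at similar low levels. PSENEN, a gamma-secretase subunit, read -2.03 with 56.5% of exon bases overlapped by other genes. APOL6 (-1.78) was lost without EV library 2 (-1.45) or 3A library 1 (-1.70) or 2 (-1.68). GAGE13 (-2.44), 80.5% of whose exon windows occur in other genes, lost its call without any 1 of the 6 libraries (-2.89 to -2.08), and both genes are uncertain.

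The 12 largest rises were chosen by the same rule. CLSPN, the adaptor of the replication checkpoint, went from 3.41, 3.58 and 2.57 CPM to 16.2, 15.2 and 13.1 CPM (2.22 ± 0.24, edgeR adjusted p = 2.30e-06). BRCA2, of homologous recombination, went from 5.31, 4.6 and 5.07 CPM to 19.4, 19.1 and 16 CPM (1.86 ± 0.18, edgeR adjusted p = 1.18e-06). The exonuclease EXO1 (1.81 ± 0.19), the repressor E2F8 (1.94 ± 0.26) and the centromere gene CENPI (1.76 ± 0.22) changed similarly. The largest of the 12 was BVES (chromosome 6, 105096822 to 105137174), a cell adhesion protein, at 3.45, 2.25 and 1.48 CPM in EV and 17.3, 22.3 and 16.3 CPM in 3A (2.98 ± 0.27, edgeR adjusted p = 8.27e-07). AOC1, which oxidises histamine and polyamines, went from 0.885, 1.02 and 1.2 CPM to 3.52, 7.22 and 3.17 CPM (2.15 ± 0.32). In both genes the WT vehicle libraries were higher than the 3A libraries, at 76.2, 117 and 79.8 CPM for BVES and 12.5, 20.5 and 11.2 CPM for AOC1. CORO1A, an actin regulator of leukocytes, changed by 1.89 ± 0.42. HTR5A, a serotonin receptor, changed by 2.49 and lost its call without EV library 3 (2.35). AKAP12, a kinase scaffold, changed by 2.0 and lost its call without EV library 1 (1.64) or 3 (1.57) or 3A library 1 (2.16) or 3 (1.57). ALDOA (2.70) and ZNF724 (2.52) are uncertain, since 53.5% and 44.8% of their exon bases are overlapped by other genes.

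**Figure D3:**
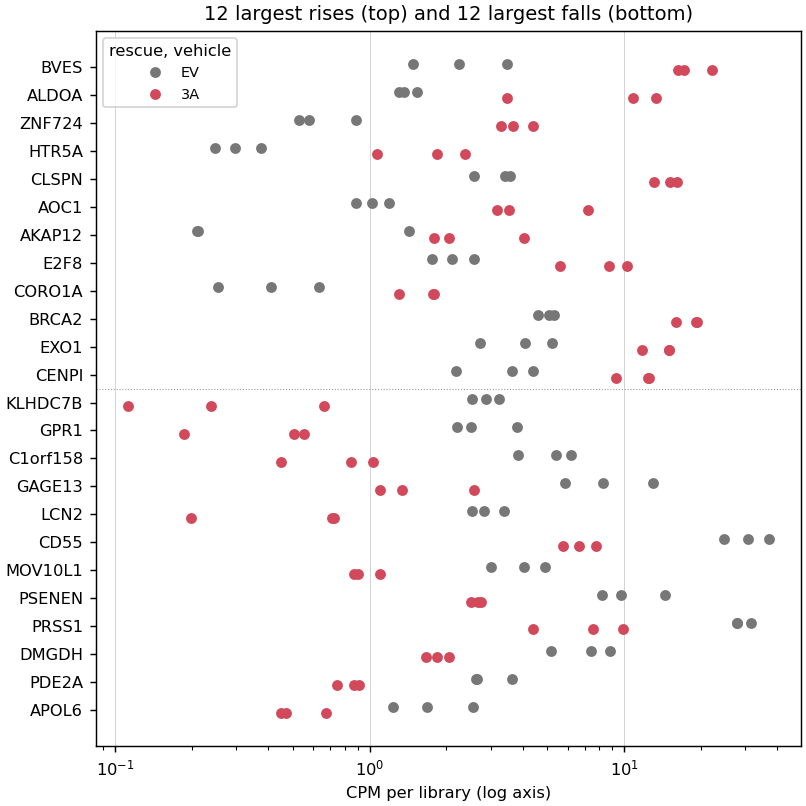
CPM per library (horizontal log axis) for the 12 largest rises (above the dotted line) and the 12 largest falls (below it) among called protein-coding genes with a mean of at least 1 CPM. Grey points are EV and red points are 3A vehicle libraries; for CD55 the 3A points lie between 5.78 and 7.77 CPM and the EV points between 24.6 and 37.0 CPM.

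Of 19 unfolded protein response genes, which mark stress of the endoplasmic reticulum, 5 were called lower (26.3%, against 3.27% of all genes) and 1 higher, and the median was -0.02. Groups did not overlap in 6 members that were lower and 3 that were higher. HERPUD1, of protein degradation at the reticulum, went from 226, 181 and 199 CPM to 113, 102 and 96.6 CPM (-0.96 ± 0.10, edgeR adjusted p = 1.59e-06). The sensor ERN1 changed by -0.77 ± 0.12 and its target XBP1 by -0.52 ± 0.09. MANF, a secreted stress factor, rose from 48.1, 44.8 and 49.4 CPM to 72.0, 67.9 and 76.3 CPM (0.60 ± 0.10). The chaperone HSPA5, which is not called, read 0.02 ± 0.09. DNAJB9 (-0.53) lost its call without 3A library 3 (-0.43), and SEL1L (-0.44) without EV library 1 or 2 or 3A library 2 or 3 (-0.43 to -0.36).

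Of the mTOR pathway list, 2 of 29 were called, both lower. That is 6.9%, near the 7.25% called among all genes. DDIT4 is given above, and MLST8, a subunit of both mTOR complexes, read -0.38, a call lost without EV library 1 or 3 or 3A library 1 or 3 (-0.37 to -0.33). The list median was -0.08, with 12 of 29 values positive. MTOR itself read 0.20 ± 0.13 and RPTOR, the scaffold of complex 1, 0.21 ± 0.12. Of 30 cytosolic ribosomal protein genes, 6 were called lower and 2 higher, with a list median of -0.22. RPLP1 (-0.81 ± 0.12) and RPL27 (-0.59 ± 0.11) held without any 1 library. RPL18 (-0.54), RPL13 (-0.44), RPL8 (-0.39) and RPL10A (-0.31) did not, with RPL18 lost without EV library 3 or 3A library 3 (-0.49 to -0.42) and RPL13, RPL8 and RPL10A without EV library 1 or 3 or any 1 of the 3A libraries (-0.50 to -0.27). The higher members were RPS23 (1.14 ± 0.19) and RPL30 (1.30 ± 0.26), both of families with many processed copies. Of their 100-base exon windows, 1.9% in RPS23 and 0.0% in RPL30 occur identically in another gene. RPL30 has 21.6% of its exon bases overlapped.

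Androgen-regulated genes were counted next. Of 29 androgen-induced genes, 2 were called lower and 1 higher (10.3% called), with a median of 0.07, and of 16 androgen-repressed genes 0 were called by edgeR. Neither count is far from the 7.25% called among all genes. TSC22D3, a glucocorticoid and androgen target, went from 156, 113 and 133 CPM to 81.8, 84.4 and 73.0 CPM (-0.75 ± 0.13, edgeR adjusted p = 0.000440). The calls of FKBP5 (0.43, a receptor co-chaperone) and KLK4 (-0.36, a kallikrein) were lost without 1 library: FKBP5 without EV library 1 or 3 or 3A library 1 or 2 (0.37 to 0.44), KLK4 without EV library 2 or 3 or 3A library 1 or 2 (-0.37 to -0.29). KLK3, the prostate-specific antigen gene, read -0.15 ± 0.21 and TMPRSS2 -0.19 ± 0.13. None of 26 genes for HOX partners and cofactors of androgen-driven transcription was called. Of 17 other HOX cluster genes only PRAC1 was (5.88%, against 7.25% of all genes), at -0.48. That call was lost without any 1 of the 3A libraries or EV library 1 or 3 (-0.54 to -0.41).

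In lipid and glucose metabolism, 4 of 19 fatty acid synthesis genes (21.1%), 4 of 20 glycolysis genes (20%) and 2 of 22 sterol genes (9.09%) were called higher, against 3.97% of all genes, and 0 were called lower in each. All 20 glycolysis genes had positive values (0.10 to 2.70, median 0.29), and 13 had non-overlapping groups. FADS2, the desaturase of polyunsaturated fatty acids, went from 558, 699 and 730 CPM to 918, 988 and 1106 CPM (0.60 ± 0.12, edgeR adjusted p = 0.00301), and it is the 1 fatty acid call that held without any 1 library. FADS1 (0.50), a further desaturase, was lost without EV library 1 (0.41). ACSL4 (0.51) and ELOVL6 (0.49) were lost without EV library 1 or 3 or 3A library 1 or 3, at 0.46 to 0.49 for both. FDPS (0.40) was lost without EV library 1 or 2 or 3A library 2 or 3 (0.35 to 0.38). In glycolysis, PKM (0.39) was lost without EV library 1 or 3A library 2 or 3 (0.34 to 0.36), LDHA (0.52) without EV library 1 or 3 or 3A library 2 or 3 (0.47 to 0.53), and PGAM1 (0.26) without any 1 library (0.23 to 0.29). The fourth, ALDOA, is uncertain as stated.

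Among surface and secreted regulators, CD274, which encodes the checkpoint ligand PD-L1, went from 1.60, 1.47 and 1.27 CPM to 3.68, 4.83 and 3.88 CPM (1.51 ± 0.22, edgeR adjusted p = 7.74e-05). The WT libraries were higher again, at 10.7, 12.8 and 7.62 CPM. CD55 was the other checkpoint list member to hold, and TNFSF15 (-0.56) was lost without EV library 3 or 3A library 2 (-0.54 and -0.45). GDF15, a secreted stress cytokine on both the TGF-beta and the p53 lists, changed by -1.0 ± 0.21, and SMAD6, an inhibitory SMAD, by 0.65 ± 0.12. Of 16 p53 targets 3 were called, all lower (18.8%, against 3.27% of all genes): SESN2, GDF15 and GADD45A (-0.71 ± 0.14). The cell cycle inhibitor CDKN1A of that list read -0.40 ± 0.12 (edgeR adjusted p = 0.0556). In the BCL2 family 3 of 17 were called lower (17.6%, against 3.27% of all genes). PMAIP1, the pro-apoptotic NOXA gene, read -0.67 ± 0.15, BBC3 (PUMA) read -0.71 and was lost without EV library 3 (-0.59), and BCL2L2 read -0.35 and was lost without any of 5 libraries, EV library 3 being the exception (-0.38 to -0.31). CA9, a hypoxia-induced carbonic anhydrase, was the 1 called hypoxia gene of 16 (6.25%, against 7.25% of all genes). It read 0.042, 0.170 and 0.106 CPM in EV and 0.629, 1.05 and 0.871 CPM in 3A. Of its exon bases, 38.5% are overlapped on the other strand. OAS3, an antiviral enzyme, was the 1 called of 21 interferon-stimulated genes (1.32 ± 0.18). That is 4.76% of that list, against 7.25% of all genes.

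Of 23 luminal epithelial genes, 3 were called lower (13.0%, against 3.27% of all genes) and 1 higher, with a median of -0.04. In 8 of the 23 every 3A library was below every EV library. ESRP1, an epithelial splicing factor, went from 166, 146 and 148 CPM to 98.5, 85.3 and 85.3 CPM (-0.77 ± 0.09, edgeR adjusted p = 7.33e-06). The keratin KRT8 read 0.00 ± 0.11. CLDN7 (-0.37) and KRT19 (1.05) were lost without EV library 1 or 3 or 3A library 3, and also without 3A library 1 for CLDN7 and 2 for KRT19, at -0.37 to -0.29 and 0.77 to 1.21. FOLH1 (-0.29) was lost without any 1 library (-0.32 to -0.23). None of 10 mesenchymal, 6 neuroendocrine and 9 LXR target genes was called. Of 18 histone genes, H2AFX, the variant phosphorylated at DNA breaks, was higher (0.98 ± 0.13), and H3F3A (-0.34) was lost without EV library 1 or 3 or 3A library 2 or 3 (-0.35 to -0.28). Single calls in further lists were ETV1 (0.35), GNL3 (-0.35) and MT-ATP6 (-0.70). ETV1 was lost without any 1 of the EV libraries or 3A library 1 (0.25 to 0.37), GNL3 without EV library 1 or 3A library 2 or 3 (-0.34 to -0.30), and MT-ATP6 without EV library 2 or 3 or any 1 of the 3A libraries (-0.73 to -0.66).

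Non-coding genes were led by processed pseudogenes, which are reverse-copied from messenger RNA and share sequence with their parent genes. Of 633 tested, 49 were called higher and 22 lower in vehicle, 11.2%, against 7.94% of 13175 protein-coding genes. With R1881 the same class gave 16 higher and 27 lower, 6.79%. RPSAP47 read 0.758, 0.136 and 0.457 CPM in EV and 9.75, 31.4 and 40.5 CPM in 3A (5.95 ± 0.64, edgeR adjusted p = 2.87e-06). AL355032.1 (4.24) and RPL37AP1 (3.96) had the same pattern, with 3A library 1 the lowest of the 3. RPL37AP1 lost its call without EV library 1 or 3 or 3A library 3 (2.95 to 4.04). Among non-coding falls, the mitochondrial tRNA gene MT-TY went from 7.75, 14.5 and 13.6 CPM to 3.27, 1.83 and 1.62 CPM (-2.40 ± 0.32), beside the difference in mitochondrial ribosomal RNA given above. ATP5MC2P4 (-2.41) and SMG1P7 (-2.31) are pseudogenes. How reads from such copies were assigned is not given in the sources used here, and these values are uncertain.

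The same contrast can be read in libraries that share none of these 6, the 3A and EV libraries with R1881. The labels do not say whether their rescue cells were derived separately, and the same fit supplied their spread. They cannot be taken as a replication of the rescue itself. In the R1881 libraries 754 genes were higher and 697 lower, 8.45% of those tested. Of the 682 genes higher in vehicle, 405 were called higher with R1881, 59.4% of the vehicle calls and 53.7% of the R1881 calls, and 0 were called lower. Of the 562 genes lower in vehicle, 289 were called lower, 51.4% and 41.5%, and 0 were called higher. Called genes kept their sign in 650 of 682 and 545 of 562 cases. The R1881 count was 867 without EV R1881 library 2, 822 without EV R1881 library 3 and 813 without 3A R1881 library 3. Over protein-coding genes, log2 fold change and GC content had a Spearman correlation of -0.43 with R1881 and -0.09 in vehicle, a description across genes. After correction for GC content and gene length 1268 genes were called with R1881. With R1881 the mitotic list had 22 of 22 higher, the G1/S list 23 of 24 higher and the ATF4 list 21 of 25 lower, with medians of 1.30, 0.93 and -0.79. MKI67 changed by 1.31, TRIB3 by -1.43, CD55 by -1.80 and CLSPN by 1.57 in those libraries. The difference between the R1881 and vehicle contrasts was called for 2 genes, 0.0117% of those tested, BVES and PTPRR, and 1072 genes had an unadjusted p under 0.05.

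**Figure D4:**
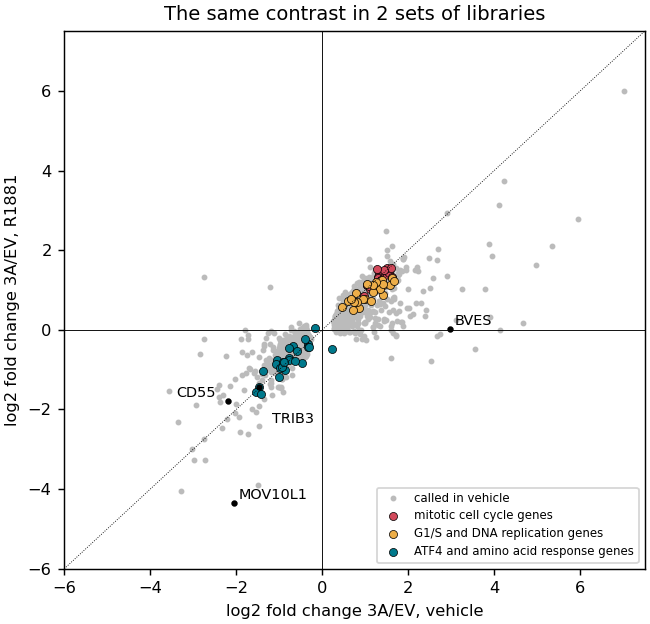
Log2 fold change of 3A over EV with R1881 (vertical axis) against the same in vehicle (horizontal axis) for the 1244 genes called in vehicle (grey) and for the members of 3 lists. The dotted line marks equal values; list members lie near it, and BVES is at 2.98 in vehicle and 0.02 with R1881.

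The WT vehicle libraries give a further reference, with the same 3A libraries on one side, so the values are set side by side and are not independent of the contrast with EV. Against WT, 453 genes were higher and 514 lower in 3A, 967 in all, 5.63% of those tested. The count was 559 without WT library 2, 472 without 3A library 2 and 588 without 3A library 3. Of the mitotic list 19 of 22 were higher in 3A than in WT, of the G1/S list 21 of 24, and of the ATF4 list 21 of 25 were lower. MKI67 changed by 1.63 against EV and 1.24 against WT, CDK1 by 1.04 and 0.88, TRIB3 by -1.47 and -1.25, CD55 by -2.19 and -2.36, and CHAC1 by -1.42 and -1.49. CCNB1 of the mitotic list was not called against WT (0.56), nor was CCNE2 of the G1/S list (0.21). BVES, AOC1 and CD274 were lower in 3A than in WT, by -2.29, -1.67 and -1.33, while they were higher in 3A than in EV. VWF differed from EV by 1.29 and from WT by -0.01.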

How the data were processed

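RNA from 18 LNCaP libraries was measured, 3 per group by title. The authors deposited counts, whole reads per gene for 58735 genes. HISAT2 2.0.5, the build hg38 and featureCounts 1.5.0-p3 are listed, without roles, in the submitters' processing notes. Not given in the sources used here were the annotation release, strandedness and multi-mapping rules. The deposited counts were tested with edgeR 4.0.16 (R 4.3.3). First, genes were filtered by filterByExpr (minimum count 10, minimum total 15), libraries were scaled by TMM, and 1 coefficient per group was fitted to the 18 libraries, with common dispersion 0.0186 on 12 residual degrees of freedom. Adjustment was by Benjamini-Hochberg over 17162 genes.

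On simulated counts for these 17162 genes and this contrast, the test found 25 of 67 genes altered 1.5-fold, 54 of 67 altered 2-fold and 64 of 66 altered 4-fold, and made 10 false calls. Replicates differed by more than sampling noise, the ratio of chi-square to degrees of freedom being 9.87 to 24.6.

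The members and the 30 gene lists were chosen with earlier results of these data known. The naming rule took HOXB13, the 12 largest called rises and 12 largest called falls among protein-coding genes averaging 1 CPM or more with non-overlapping groups, 3 non-coding genes each way, and up to 4 members per list by adjusted p. Other list members, BVES and PTPRR in the R1881 comparison, and the promoter motifs were chosen after values were seen. Exon overlaps and shared 100-base windows came from GENCODE 29. Alternatives were RLE scaling, DESeq2 1.42.0, no filter, 1 CPM in 3 libraries, the 6 libraries alone, a replicate block, a minimum fold of 1.2, leaving out each library, and, chosen after seeing the data, an offset for gene length and GC content. FPKM values were not used. Some genes that met the rule are left out of the text and stay in the counts.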

Additional observations from a re-analysis of the deposited data

Results flagged for a closer look

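Among all genes tested, 2 differed in the 3A to EV contrast between R1881 and vehicle, by the interaction term of the edgeR fit. BVES was at 3.45, 2.25 and 1.48 CPM in EV and 17.3, 22.3 and 16.3 CPM in 3A in vehicle. With R1881 it was at 1.89, 2.88 and 2.28 CPM in EV and 1.51, 2.08 and 3.5 CPM in 3A. The log2 fold change was 2.98 in vehicle and 0.02 with R1881, a difference of -2.95 ± 0.41 (edgeR adjusted p = 0.00788). The 3A groups did not overlap between treatments. The call was lost without EV R1881 library 2 (-2.79, edgeR adjusted p = 0.0922).

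PTPRR, a tyrosine phosphatase that acts on MAP kinases, was at 17.7, 16.5 and 19.0 CPM in EV and 25.2, 18.5 and 19.9 CPM in 3A in vehicle. With R1881 it was at 3.29, 2.29 and 2.33 CPM in EV and 9.88, 9.34 and 8.19 CPM in 3A. The log2 fold change was 0.26 in vehicle and 1.79 with R1881, a difference of 1.53 ± 0.23 (edgeR adjusted p = 0.0154). EV and 3A overlapped in vehicle and did not overlap with R1881. The call was lost without EV vehicle library 1 (1.52) or 3 (1.47), 3A vehicle library 2 (1.44) or 3 (1.49), EV R1881 library 2 (1.43) or 3 (1.44) or 3A R1881 library 2 (1.51), with edgeR adjusted p from 0.0552 to 0.128.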

How the results depend on the processing

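Direction did not reverse for any called gene named by the rule under the 14 alternatives for this contrast. Of 90 such genes, 61 were called in all 14, and CA9 was called in the 12 that gave it an adjusted p. A call in every fit without 1 library held for 63 of the 90. Apart from HOXB13, these genes were chosen from the reported fit by size of change or adjusted p, so reversals were unlikely. Of all genes called in vehicle, 58.8% to 76.7% stayed called when 1 library of the contrast was left out. The counts of the mitotic (21 to 22), G1/S (22 to 24), ATF4 (17 to 23) and amino acid transporter (5 to 9) lists stayed within 1.5 times their reported values. Against a minimum fold of 1.2, 591 genes were called in vehicle (385 higher, 206 lower), 516 with R1881 and 361 against WT, and HOXB13 (0.51) was no longer called. Deviations of same-numbered EV and 3A vehicle libraries correlated at 0.14, -0.14 and 0.02. In every group, though, library 1 had the lowest mitochondrial share of counts. In vehicle it was 4.46% against 5.3% and 5.39% in EV, and 3.8% against 4.01% and 4.66% in 3A. Whether same-numbered libraries share a batch was not tested, and the reported fit has no term for it. With the replicate block, 2072 genes were called in vehicle (1097 higher, 975 lower), against 1244 as reported. The block gave 2409 with R1881 (1451 as reported), 1732 against WT (967) and 6 for the difference between treatments (2). Without a filter on low counts that difference was called for 62 genes. Without 1 library the vehicle count ran from 751 to 1100 (higher 442 to 552, lower 309 to 551), the R1881 count from 813 to 1427, the count against WT from 472 to 1295, and the difference between treatments from 0 to 6. The causes were not tested. At 0, without EV R1881 library 2, edgeR gave 793 genes an unadjusted p under 0.05. Over protein-coding genes, log2 fold change and gene length had a Spearman correlation of 0.20 in vehicle and 0.16 with R1881, a description across genes that are not independent. Correction for GC content and length gave 1574 calls in vehicle, 1169 of them shared with the reported calls, and split them 51.1% higher against 54.8% as reported. In the simulation, which gave all genes the same dispersion, small changes were the least well recovered, with 25 of 67 changes of 1.5-fold called.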
